A study of Rattus norvegicus with 14 samples.

Results

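The genes described here code for the machinery that copies DNA and for the cyclin E and E2F factors that start S phase. The 37 members were chosen by symbol and not by a cut on their values, though earlier results of these data were known. They are the 6 subunits of the replicative helicase (Mcm2 to Mcm7), the loading factors Cdc6 and Cdt1, the helicase activators Cdc45, Gins1, Gins2, Gins3, Gins4 and Mcm10, the regulators Ccne1, Ccne2 and E2f1, the primase and polymerase subunits Pola1, Pola2, Prim1, Prim2, Pold1 and Pole, the sliding clamp Pcna with its loader subunits Rfc2, Rfc3, Rfc4 and Rfc5, the strand-joining and single-strand binding genes Fen1, Lig1, Rpa1 and Rpa2, the nucleotide synthesis enzymes Rrm1, Rrm2, Tyms and Tk1, and the histone chaperone subunit Chaf1b. All 37 had a row among the 17312 genes of the deposited tables, and all 37 entered the test.

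Polyadenylated RNA was sequenced from primary aortic smooth muscle cells of the rat, bought from a supplier and grown in culture, in 14 libraries. Every group went 24 h without serum. The 0 h group (2 libraries) received nothing more, and the PDGF 2 h and PDGF 24 h groups (3 libraries each) received platelet-derived growth factor (PDGF), a mitogen for smooth muscle, at 925 ng/ml for 2 or 24 h. The JQ1 groups (3 libraries at each time) were given JQ1 at 500 nM for 3 h and then the same PDGF. JQ1 competes with acetylated histones for the bromodomains of BET proteins and so releases these from chromatin. The comparisons ask how the members' transcripts stood after PDGF and how they differed when BET proteins had been inhibited. No untreated library at 2 or 24 h and none with JQ1 by itself was analysed here, so PDGF and time in culture cannot be told apart. The labels do not say that a group's libraries came from separate cultures, so the p-values measure the spread among these samples alone, and that spread may be technical. Titles have the letters A to D without JQ1 and E to H with it, and JQ1 cannot be told apart from what these letters mark.

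In a resting cell the origins of replication are not licensed. When a mitogen carries the cell through G1, cyclin D kinases and then cyclin E kinase release E2F factors from the pocket proteins, and E2F switches on most of the genes described here. Cdc6 and Cdt1 load the MCM2-7 ring on origins in G1, Cdc45 and the GINS complex make the ring an active helicase at the start of S phase, and primase, polymerases, clamp and nucleotide supply then serve the moving fork. Vascular smooth muscle cells are quiescent in the healthy artery and can re-enter this cycle after injury, with PDGF among the signals that act on them.

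Levels are the authors' normalised FPKM (fragments relative to transcript length and to all mapped fragments, then adjusted by the authors). They are listed in the order of the libraries' column digits, from 0. That the adjustment used the spike-in RNA was inferred here from the values, and the name spike-in scale rests on that. The adjustment was not the same factor for all genes. In PDGF 2 h library 1 it took Gins1 from 0.130 to 0.511 and Pcna from 116 to 117. Differences are in log2(normalised FPKM + 1) with the SE of a limma fit over all 10133 genes tested, and a member is said to rise or fall where its Benjamini-Hochberg adjusted p was under 0.05. That scale understates changes of genes with low values. The number of reads is unknown. Between 9901 and 11503 genes were above 0 in a library, and spike-ins made up 1.65 to 2.78% of the unnormalised FPKM. On the spike-in scale the median of all genes tested lay at 0.01 (PDGF 2 h against 0 h), 0.41 (24 h against 0 h), 0.39 (24 h against 2 h), -0.29 (JQ1 at 2 h) and -0.48 (JQ1 at 24 h). Each count of members is therefore also given on a median-centred scale. There these medians lay between -0.052 (PDGF 2 h against 0 h) and 0.046 (24 h against 2 h). In bulk RNA, fewer cells in S phase and less of these transcripts per cell cannot be told apart.

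The smooth muscle label was checked against 8 contractile marker genes, none of them at 0 throughout. Their summed unnormalised FPKM was 11093 to 11490 at 0 h and 11896 to 12603 with PDGF at 2 h, but 1397 to 1662 with PDGF at 24 h, 17821 to 18203 with JQ1 plus PDGF at 2 h and 426 to 497 with JQ1 plus PDGF at 24 h. Acta2 and Tagln made up most of that sum, while Myh11 ranged from 0.213 to 5.63 and Des from 0 to 1.09 over all libraries. On the spike-in scale with JQ1 at 2 h, Tagln rose (0.48 ± 0.15), Myh11 (-0.69 ± 0.23) and Lmod1 (-0.91 ± 0.16) fell, and the other 5, Acta2 among them (0.05 ± 0.16), did not pass. Of the other cell types' markers, 1 in each list was at 0 in every library: Cdh5 (endothelium), Dpt (fibroblasts) and Ptprc (leukocytes). The summed level of the 6 endothelial markers was 42.5 to 55.2 at 0 h and with PDGF at 2 h, 92.5 to 105 with PDGF at 24 h and 20.4 to 24.9 in the JQ1 groups, nearly all of it Eng. That of the 6 leukocyte markers was 13.8 to 22.9, 36.9 to 53.1 and 6.72 to 17.3 in the same order, with Cd14 at 36.02 to 52.9 with PDGF at 24 h. Both genes thus moved along the comparisons made here: Eng and Cd14 rose with PDGF at 24 h against 0 h (1.49 ± 0.17 and 1.90 ± 0.24) and fell with JQ1 at 2 h (-1.44 ± 0.15 and -1.93 ± 0.21) and at 24 h (-2.56 ± 0.15 and -3.49 ± 0.21). Tek also rose with PDGF at 24 h against 0 h (1.31 ± 0.33), and the leukocyte marker Cd68 did not pass there (-0.26 ± 0.44). Cd68 went the other way from Cd14 with JQ1 at 24 h. It stood at 12.5, 5.37 and 7.60 before normalisation, against 0, 0.430 and 0.851 with PDGF alone. The 5 fibroblast markers with a row summed to 90.2 to 129.9 in the other groups and to 6.10 to 8.44 with JQ1 plus PDGF at 24 h. Lum made up most of that sum, at 78.3 to 119 in the other groups. Pdgfra rose with PDGF at 24 h against 0 h (1.26 ± 0.23), while Lum and Pi16 did not pass. The part of these shifts in the results below was not tested.

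The 37 members were at their highest in the unstimulated cells more often than anywhere else. Of the group means, the 0 h group had the highest for 28 members, and JQ1 plus PDGF at 24 h the lowest for 23. These counts are on the spike-in scale and were not made over all genes or when centred. On that scale 48.5% of all genes tested fell with JQ1 at 24 h against PDGF alone. The median of the members' mean levels was 11.1 at 0 h, 8.61 with PDGF at 2 h, 6.94 with PDGF at 24 h, 6.08 with JQ1 plus PDGF at 2 h and 3.62 with JQ1 plus PDGF at 24 h. Pcna had the highest mean of the members in every group, between 73.5 and 173. The lowest member was Gins2 at 0 h (1.54), and it was Mcm10 with JQ1 plus PDGF at 24 h (0.205).

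**Figure D1:**
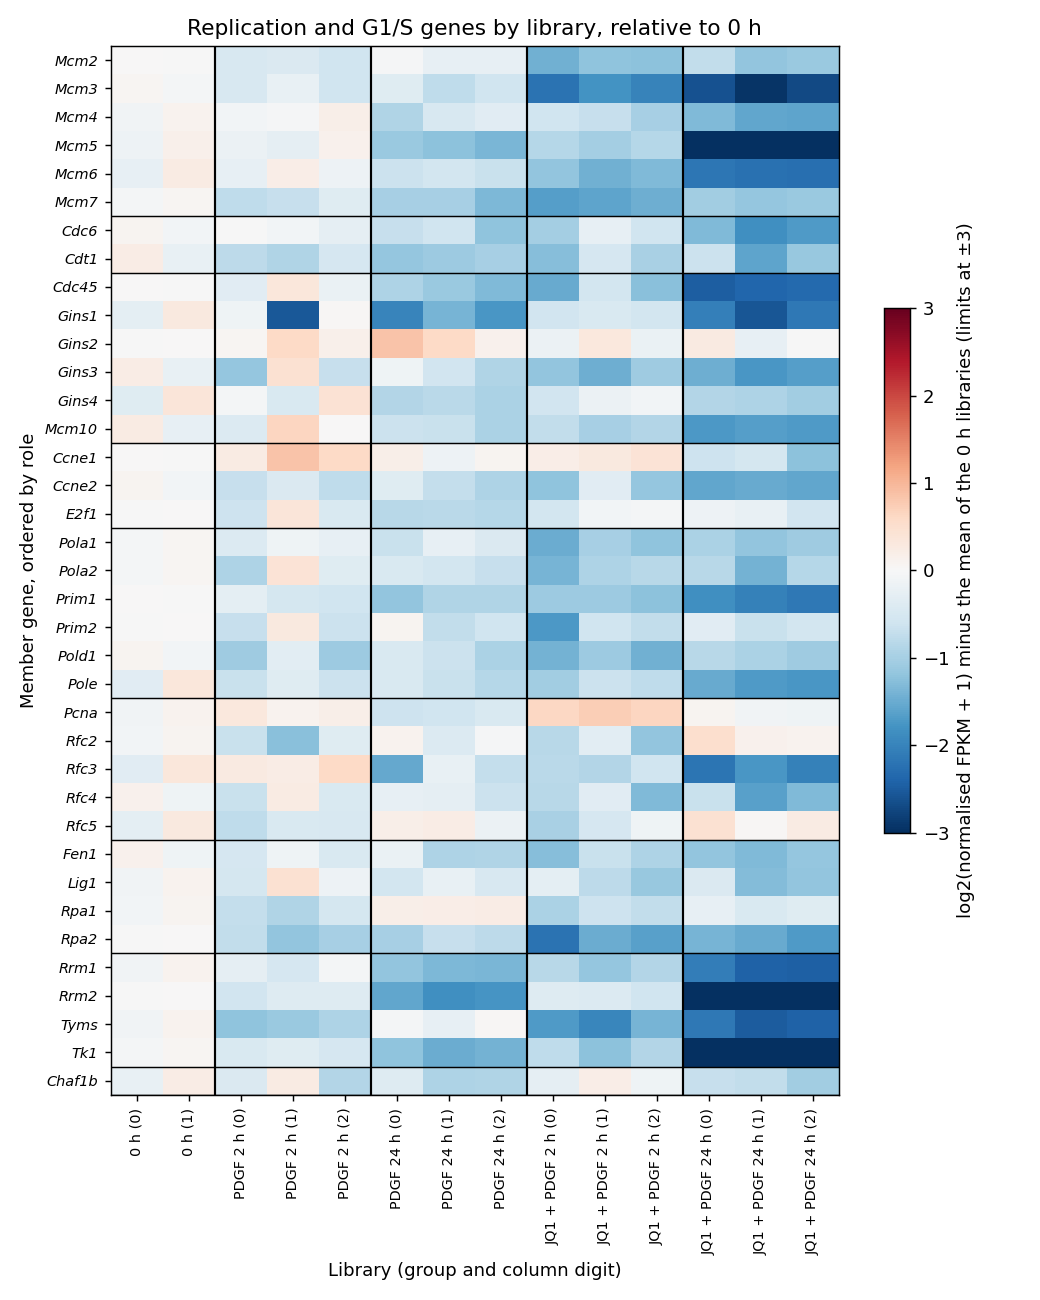
Each row is a member gene, grouped by role between the horizontal lines, and each column is a library. The colour gives log2(normalised FPKM + 1) minus the mean of the 0 h libraries, cut at 3 in either direction, so blue is lower than at 0 h. The deepest blue lies in the JQ1 plus PDGF 24 h columns at Mcm3, Mcm5, Rrm2 and Tk1, while Pcna and Rfc5 are pale or red there.

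E2F sites are the classical regulatory sequence of replication genes, so the promoters of members that moved together or apart are shown. RefSeq promoters on the assembly GRCr8 were found for 31 members, and Mcm4, Cdc6, Gins4, Ccne2, E2f1 and Rrm2 are named only. In the 250 bases before the start, 4 runs of E2F letters were searched on both strands: TTCCCGC is the first, TTCGCGC the second, TTGGCGC the third and TTGCCGC the fourth. At least 1 was present in 13 of the 31 (41.94%), against 7.97% of all 27457 promoters and 9.65% of the 18999 promoters of protein-coding genes. CCAAT, the letters of a box bound by NF-Y, was present on either strand in 17 of 31 (54.84%, against 34.29% of all promoters). TTTGAA, letters of the cell cycle homology element of G2/M genes, was present in 2 of 31 (6.45%, against 16.03%). Matches to the E2F letters can overlap each other, as they do in Mcm7. The lines below give the last 150 bases before the start of 5 members chosen after their values were seen, 5′ to 3′ on the gene's strand, with matches to the E2F letters in capitals. Mcm5, Mcm7 and Tyms carry such a match in this window and Tk1 and Pcna do not. A match is a description of these letters and not a measured site.
Mcm5 (chr19:13488663-13488812, GRCr8, + strand): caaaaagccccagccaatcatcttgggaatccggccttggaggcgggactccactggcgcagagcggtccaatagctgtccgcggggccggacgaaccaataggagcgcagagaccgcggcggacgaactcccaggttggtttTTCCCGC
Mcm7 (chr12:22163179-22163328, GRCr8, - strand): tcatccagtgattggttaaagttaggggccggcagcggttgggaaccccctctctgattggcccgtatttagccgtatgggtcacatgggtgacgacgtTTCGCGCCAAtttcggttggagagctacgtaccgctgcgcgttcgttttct
Tyms (chr9:120776084-120776233, GRCr8, - strand): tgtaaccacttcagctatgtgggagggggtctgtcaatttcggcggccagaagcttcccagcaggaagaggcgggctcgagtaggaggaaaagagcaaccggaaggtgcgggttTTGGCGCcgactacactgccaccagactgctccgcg
Tk1 (chr10:103544778-103544927, GRCr8, - strand): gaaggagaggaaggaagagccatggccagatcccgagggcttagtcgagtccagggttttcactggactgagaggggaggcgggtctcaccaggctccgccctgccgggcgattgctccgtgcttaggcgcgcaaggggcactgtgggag
Pcna (chr3:139955821-139955970, GRCr8, - strand): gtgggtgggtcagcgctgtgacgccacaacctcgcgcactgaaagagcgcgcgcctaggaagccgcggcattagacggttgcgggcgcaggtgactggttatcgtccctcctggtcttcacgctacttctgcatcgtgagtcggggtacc

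After 2 h of PDGF no member had risen and 7 of 37 had fallen: the helicase subunits Mcm2 and Mcm7, the primase subunit Prim1, the polymerase delta subunit Pold1, the single-strand binding subunits Rpa1 and Rpa2, and the thymidylate synthase Tyms. By the same limma rule 17.7% of all genes tested rose and 12.7% fell. At an unadjusted p under 0.05, 1 member was higher and 13 were lower. The members' median difference was -0.36 against 0.01 for all genes, and 31 of 37 lay below that all-gene median. On the median-centred scale 1 member rose (Ccne1, 0.52 ± 0.19) and 14 fell, where 20.4% and 19.4% of all genes did. The calls of Rpa1, Rpa2 and Tyms held with each library left out in turn. Those of Mcm2, Mcm7, Prim1 and Pold1 were lost without 0 h library 0 and without 0 h library 1, either of which left 3 falls. Single PDGF libraries also ended some of these 4 calls, and the adjusted p in all such fits was between 0.0533 and 0.175. Without PDGF 2 h library 0, 1 member rose.

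After 24 h of PDGF 20 of 37 members had fallen against unstimulated cells and none had risen, while most genes that moved went the other way: 37.7% of all genes tested rose and 4.85% fell. The falls took in 5 helicase subunits (Mcm3, Mcm4, Mcm5, Mcm6 and Mcm7), both loading factors, Cdc45, Gins1, Gins4, E2f1, Prim1, Pold1, Pcna, Rfc3, Fen1, Rpa2, Rrm1, Rrm2 and Tk1. With limma at an unadjusted p under 0.05, 0 members were higher and 24 lower. The members' median difference was -0.67, the all-gene median was 0.41, and 36 of 37 members lay below the latter. When centred, 0 rose and 29 fell, where 14.8% and 13.4% of all genes did, and all 20 falls were among the 29. Both comparisons with 0 h rest on the same 2 unstimulated libraries. Leaving out 0 h library 1 left 10 falls, with 10 of the 20 calls lost (adjusted p 0.0752 to 0.335), and leaving out 0 h library 0 lost 7 calls (0.0570 to 0.240). PDGF 24 h libraries 0, 1 and 2 ended 3, 3 and 5 calls when left out, with adjusted p between 0.0567 and 0.168. The 9 calls that held in all 5 of these fits were Mcm5, Mcm7, Cdc45, Prim1, Pcna, Rpa2, Rrm1, Rrm2 and Tk1.

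Between 2 and 24 h of PDGF 16 members fell and 4 rose, against 11.8% and 44.5% of all genes tested. The falls were Mcm4, Mcm5, Mcm6, Mcm7, Cdc6, Cdc45, Gins4, Mcm10, Ccne1, E2f1, Prim1, Pcna, Rfc3, Rrm1, Rrm2 and Tk1. The rises were the clamp loader subunits Rfc2 and Rfc5, the single-strand binding subunit Rpa1, and Tyms. The members' median was -0.34 against 0.39 for all genes, with 33 of 37 below it. When centred, 2 members rose (Rpa1 and Tyms) and 20 fell, where 26.6% and 25.8% of all genes did. The rises fell to 2 without PDGF 2 h library 0 and without PDGF 24 h library 0. In all, 8 of the 20 calls were lost without some single library (Mcm4, Mcm7, Cdc6, Mcm10, Ccne1, E2f1, Rfc2 and Rfc5), with adjusted p between 0.0504 and 0.206, and each of the 6 libraries of the comparison ended at least 1 of them. The comparison shares the PDGF 24 h libraries with the one against 0 h.

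**Figure D2:**
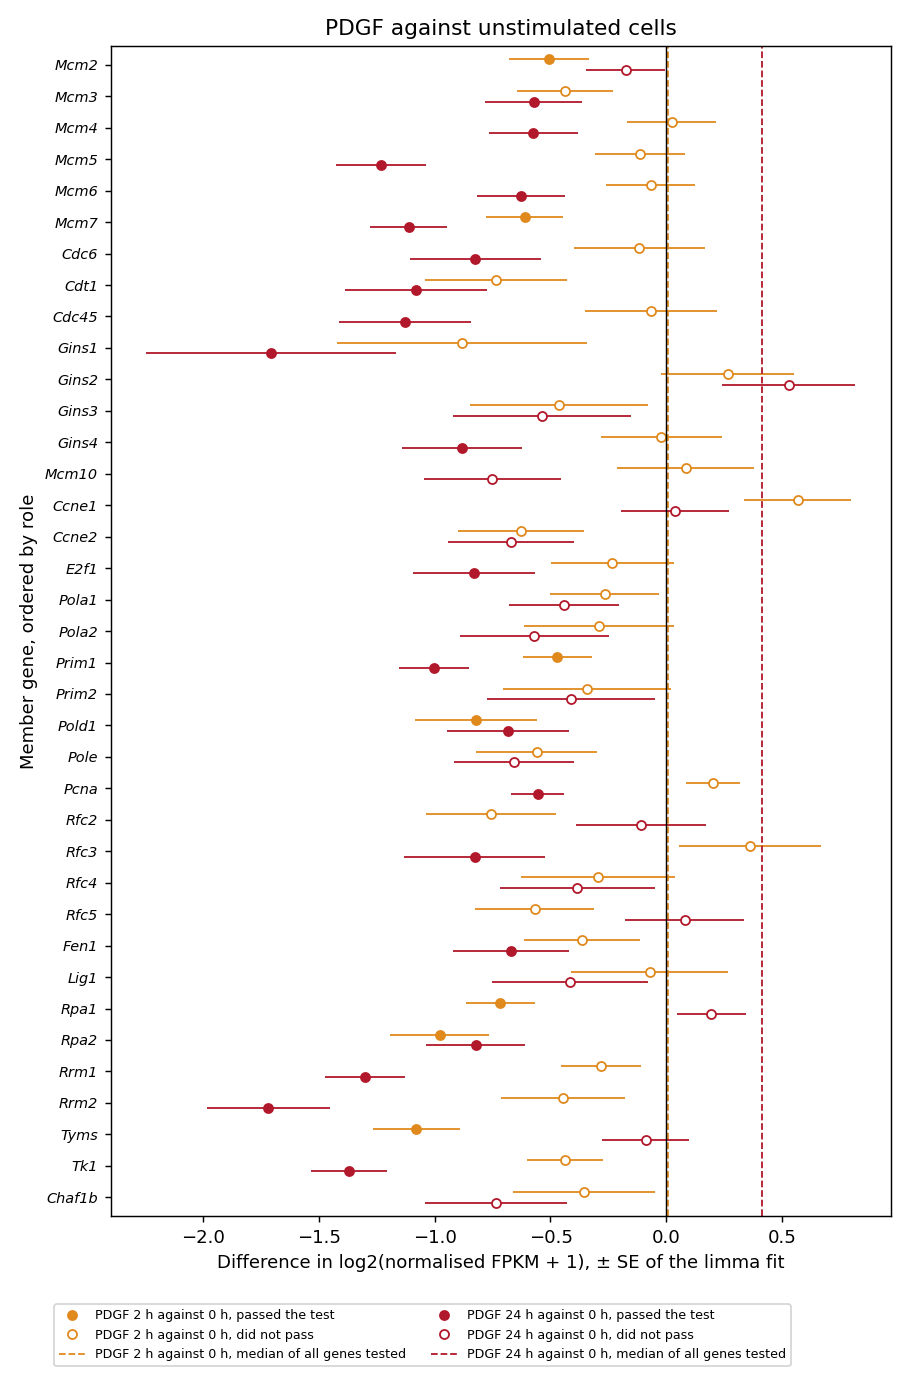
Points are the difference of each member in log2(normalised FPKM + 1) from the 0 h libraries with the SE of the limma fit, orange for PDGF at 2 h and red for 24 h, filled where the adjusted p was under 0.05. The dashed lines are the medians of all genes tested (0.01 and 0.41). All red points but that of Gins2 lie left of the red line, and both times share the 0 h libraries.

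In cells given JQ1 before PDGF, 17 of 37 members fell at 2 h against PDGF alone and 1 rose. All 6 helicase subunits fell, together with Cdc45, Mcm10, Pola1, Pola2, Prim1, Rfc3, Fen1, Rpa2, Rrm1, Tyms and Tk1, and Pcna rose. Of all genes tested, 34% fell and 7.24% rose. The members' median was -0.59 against -0.29 for all genes, with 23 of 37 below the latter. When centred, 11 members fell and 1 rose (21.5% and 20.1% of all genes), and Pola2, Prim1, Fen1, Rpa2, Tyms and Tk1 no longer passed. Of the 18 calls, 15 held with each library left out. Tk1 was lost without JQ1 plus PDGF 2 h library 1 (adjusted p 0.0533), and Pola2 and Fen1 were each lost without PDGF 2 h library 1 or 2 or JQ1 plus PDGF 2 h library 0 or 2, and Pola2 also without JQ1 plus PDGF 2 h library 1 (0.0506 to 0.209).

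At 24 h, 22 members fell with JQ1 plus PDGF against PDGF alone, and Pcna was again the 1 that rose. The falls were Mcm2, Mcm3, Mcm4, Mcm5, Mcm6, Cdc6, Cdc45, Gins3, Mcm10, Ccne1, Ccne2, Pola1, Prim1, Pole, Rfc3, Rfc4, Rpa1, Rpa2, Rrm1, Rrm2, Tyms and Tk1. Of all genes tested 48.5% fell and 4.61% rose, and the 22 of 37 members are read against that background. The members' median was -0.80 against -0.48 for all genes, with 26 of 37 below it. When centred, 12 fell (Mcm2, Mcm3, Mcm5, Mcm6, Cdc45, Mcm10, Prim1, Pole, Rrm1, Rrm2, Tyms and Tk1) and 5 rose (Pcna, Mcm7, E2f1, Rfc2 and Rfc5), where 25.8% and 23.1% of all genes did. Of the 23 calls, 19 held with each library left out. Cdc6, Gins3, Pola1 and Rfc4 were lost without 1 of PDGF 24 h libraries 0 and 1 or JQ1 plus PDGF 24 h libraries 1 and 2 (adjusted p 0.0503 to 0.135). The comparison shares the PDGF 24 h libraries with both PDGF comparisons at that time.

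**Figure D3:**
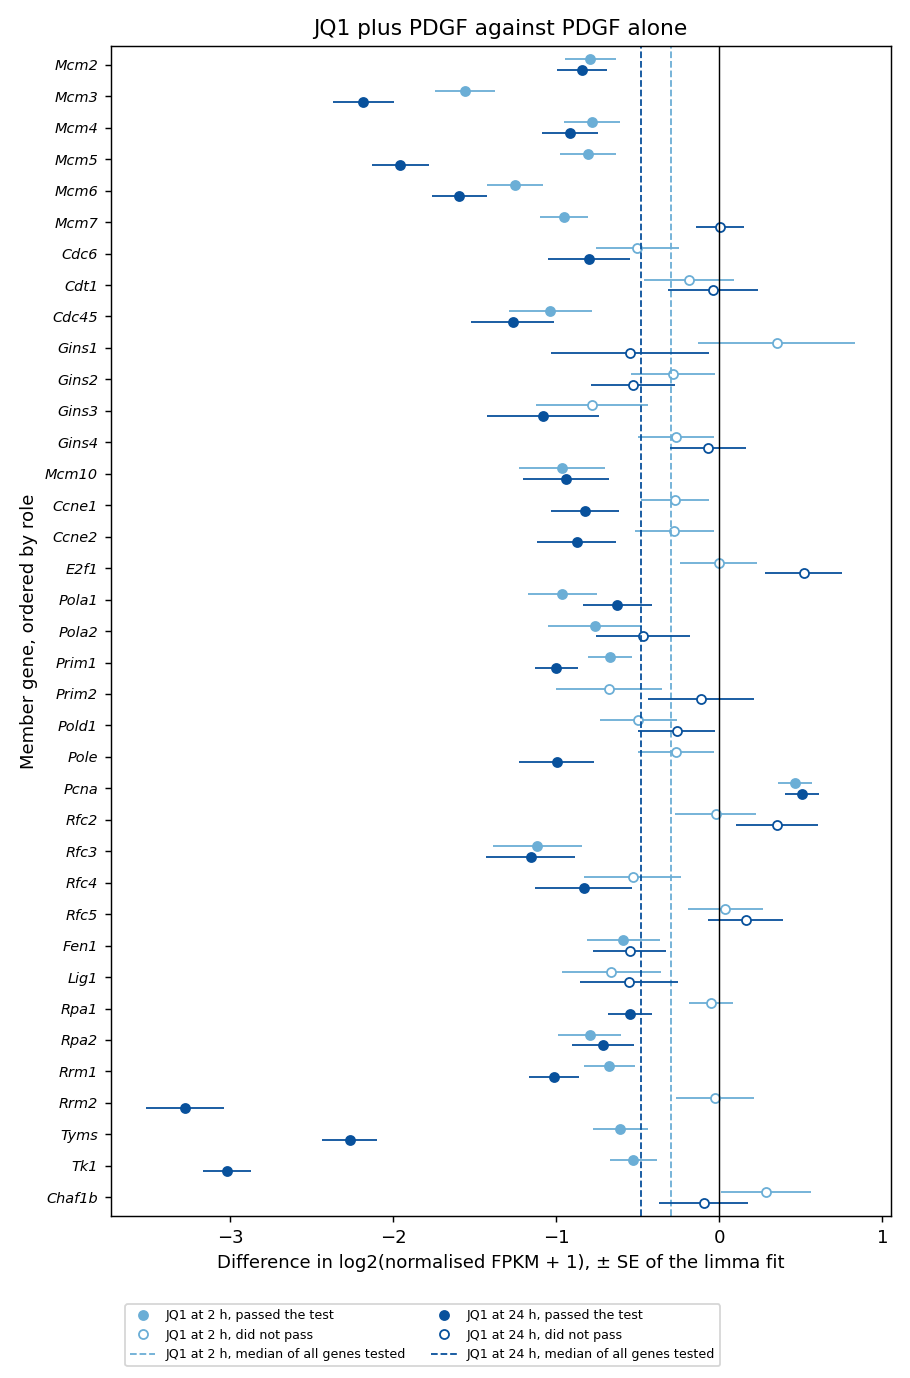
Points are the difference of each member between JQ1 plus PDGF and PDGF alone in log2(normalised FPKM + 1), with the SE of the limma fit, light blue at 2 h and dark blue at 24 h, filled where the adjusted p was under 0.05. The dashed lines are the medians of all genes tested (-0.29 and -0.48). Rrm2, Tk1, Tyms, Mcm3, Mcm5 and Mcm6 lie farthest left at 24 h, and Pcna lies to the right of 0 at both times.

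The difference made by JQ1 was not the same at both times for 5 members. In the test of the difference itself, Rrm2 (-3.25 ± 0.34, adjusted p 7.09e-06), Tk1 (-2.49 ± 0.21, 6.94e-07), Tyms (-1.66 ± 0.24, 0.000143) and Mcm5 (-1.15 ± 0.24, 0.00326) were lower under JQ1 at 24 h beyond their difference at 2 h. Mcm7 went the other way (0.96 ± 0.21, 0.00397). Of all genes tested 17.5% were lower and 4.82% higher in this test, and 4 and 1 of 37 members are no more than that background. The members' median of -0.23 was close to the -0.22 of all genes. The same counts of 4 and 1 came from the median-centred scale, where 16.4% and 13.5% of all genes passed, and all 5 calls held there and with each library left out. The other 32 members had no difference between the times that passed.

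Among the helicase subunits, the falls with JQ1 at 24 h were deepest for Mcm3, Mcm5 and Mcm6. Mcm5 stood at 12.7 and 15.7 at 0 h, at 12.4, 11.4 and 15.4 with PDGF at 2 h and at 6.001, 5.45 and 4.88 with PDGF at 24 h. In cells given JQ1 before PDGF it was at 7.37, 6.40 and 7.29 at 2 h and at 0.667, 0.688 and 0.619 at 24 h. The 0 h and PDGF 2 h libraries overlapped, those of PDGF at 24 h lay below both, and the JQ1 24 h libraries lay apart from all others. The differences were -1.23 ± 0.19 for PDGF 24 h against 0 h (adjusted p 0.000154), -0.80 ± 0.17 with JQ1 at 2 h (0.0018) and -1.96 ± 0.17 at 24 h (2.00e-07), and the last is a mean level 0.121 times that with PDGF alone. When centred these were -1.64, -0.49 and -1.54, all still called.

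Mcm3 was at 16.9 and 15.2 at 0 h, 11.2, 13.6 and 10.2 with PDGF at 2 h, and 12.3, 9.08 and 10.2 at 24 h. The JQ1 libraries held it at 2.68, 3.95 and 3.27 at 2 h and at 1.78, 1.21 and 1.61 at 24 h, below every PDGF library at either time. JQ1 at 24 h gave the largest difference of any helicase subunit (-2.18 ± 0.19, adjusted p 1.38e-07, centred -1.71), after -1.56 ± 0.19 at 2 h (1.39e-05, centred -1.30). Its fall with PDGF at 24 h (-0.57 ± 0.21, adjusted p 0.0381) was lost without 0 h library 0 or 1 or PDGF 24 h library 1 or 2 (0.0876 to 0.209). Mcm6 was at 17.1 and 24.7 at 0 h, 17.01, 23.9 and 18.4 with PDGF at 2 h, and 12.7, 13.6 and 12.5 at 24 h. Its level was 8.48, 6.94 and 7.55 with JQ1 plus PDGF at 2 h and at 3.83, 3.55 and 3.49 at 24 h, again without overlap with PDGF alone. Its JQ1 differences were -1.25 ± 0.17 (adjusted p 4.54e-05) and -1.59 ± 0.17 (1.45e-06), and -0.96 and -1.10 when centred.

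Mcm2 and Mcm4 moved less. Mcm2 was at 18.7 and 18.4 at 0 h, 12.9, 13.5 and 11.996 with PDGF at 2 h, and 18.1, 15.5 and 15.5 at 24 h. After JQ1 and PDGF it was at 6.18, 7.48 and 7.34 and then at 10.7, 7.55 and 8.07. Its differences with JQ1 were -0.79 ± 0.15 (adjusted p 0.000851) and -0.84 ± 0.15 (0.000296), and each pair of groups lay apart. Mcm4 was at 19.9 and 23.6 at 0 h and 20.6, 21.1 and 24.7 with PDGF at 2 h, then at 11.2, 15.2 and 16.98 at 24 h. With JQ1 plus PDGF it was at 14.1, 13.1 and 10.4 and then at 8.005, 6.71 and 6.58. The differences were -0.78 ± 0.17 at 2 h (adjusted p 0.00212) and -0.92 ± 0.17 at 24 h (0.000353), and the latter was -0.41 and no longer called when centred. Mcm4 also fell between 2 and 24 h of PDGF (-0.60 ± 0.17), a call lost without PDGF 24 h library 0 (adjusted p 0.0504).

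Mcm7 stood apart from the other 5 subunits under JQ1 at 24 h. Its level was 29.2 and 31.4 at 0 h, 17.5, 18.3 and 23.1 with PDGF at 2 h, and 14.7, 14.7 and 11.3 at 24 h, where its difference from 0 h was -1.11 ± 0.17 (adjusted p 9.14e-05). In cells given JQ1 before PDGF it was at 8.96, 9.53 and 10.4 at 2 h, below all PDGF 2 h libraries (-0.95 ± 0.15, adjusted p 0.000138). At 24 h it was at 14.2, 13.0 and 13.4, within the range of PDGF alone, with a difference of 0.01 ± 0.15 (adjusted p 0.98). When centred that difference was 0.51 ± 0.12 and passed as a rise (adjusted p 0.00356), so the call depends on the scale. Mcm7 carries the microRNA genes Mir25, Mir93 and Mir106b within its RefSeq bounds. The sources used here do not say whether their reads were counted for it.

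The loading factors were low and noisy. Cdt1 was at 4.95 and 3.34 at 0 h, 1.92, 1.72 and 2.57 with PDGF at 2 h, and 1.26, 1.40 and 1.55 at 24 h, where it had fallen by 1.08 on the log2 scale (SE 0.31, adjusted p 0.0106). Without 0 h library 0 the adjusted p was 0.134. With JQ1 as well it was at 1.09, 2.57 and 1.58 at 2 h and at 2.26, 0.687 and 1.33 at 24 h, overlapping PDGF alone at both times. Cdc6 was at 4.15 and 3.59 at 0 h, 3.84, 3.58 and 3.06 with PDGF at 2 h, and 2.03, 2.21 and 1.12 at 24 h (-0.83 ± 0.28 against 0 h, adjusted p 0.0284). The JQ1 libraries held it at 1.40, 3.13 and 2.21 at 2 h and at 0.951, 0.357 and 0.486 at 24 h, lower than with PDGF alone at 24 h (-0.80 ± 0.25, adjusted p 0.0151, not called when centred). Both Cdc6 calls were lost without single libraries, 0 h library 0 or 1 or PDGF 24 h library 2 for the first (0.0769 to 0.167), and PDGF 24 h library 0 or 1 or JQ1 plus PDGF 24 h library 1 or 2 for the second (0.0503 to 0.0674).

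Of the helicase activators, Cdc45 changed most steadily. Its level was 7.59 and 7.49 at 0 h, 5.77, 9.83 and 6.42 with PDGF at 2 h, and 3.48, 2.92 and 2.39 at 24 h. After JQ1 and PDGF it was at 2.00, 4.84 and 2.61 at 2 h and at 0.533, 0.646 and 0.693 at 24 h. Each JQ1 group lay below its PDGF group, by -1.04 ± 0.26 at 2 h (adjusted p 0.0044) and -1.27 ± 0.26 at 24 h (0.000651). These were -0.76 and -0.85 when centred, both called.

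Gins1, a subunit of the GINS complex, had the largest fall of the activators with PDGF at 24 h and also the widest spread. Its level was 6.23 and 9.72 at 0 h and at 1.22, 2.36 and 1.62 with PDGF at 24 h (-1.71 ± 0.54, adjusted p 0.0187). The call was lost without 0 h library 1 or PDGF 24 h library 0 (0.0567 to 0.128). At 2 h of PDGF, 2 libraries were at 6.99 and 8.01 and library 1 was at 0.511, which was also 0.130 before normalisation. Gins1 did not pass in either JQ1 comparison (4.91, 5.41 and 4.97 at 2 h and 1.11, 0.491 and 0.996 at 24 h). Gins3 was at 3.37, 2.19 and 1.56 with PDGF at 24 h and at 0.729, 0.433 and 0.532 with JQ1 as well (-1.08 ± 0.34, adjusted p 0.0153), a call lost without PDGF 24 h library 0 or JQ1 plus PDGF 24 h library 1 (0.0523 to 0.0708) and when centred. Gins3 was at 4.54 and 3.12 at 0 h, at 1.15, 5.60 and 1.94 with PDGF at 2 h and at 1.098, 0.739 and 1.27 with JQ1 plus PDGF at 2 h, where the 2 h groups overlapped.

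The other activators differed in direction and in what passed. Mcm10, which helps the helicase start to move, fell with JQ1 at 2 h (-0.96 ± 0.26, adjusted p 0.00866) and at 24 h (-0.94 ± 0.26, 0.00737), and its 24 h JQ1 libraries were at 0.175, 0.239 and 0.202. Cdh5, at 0 before normalisation, had normalised values of 0.0977, 0.0935 and 0.0968 in these libraries, so Mcm10 lay near the floor. Gins4 fell with PDGF at 24 h (-0.88 ± 0.26, adjusted p 0.0129), which was lost without 0 h library 1 (0.202), and differed by -0.07 ± 0.23 with JQ1 at 24 h. Gins2 passed in none of the 6 comparisons and ranged from 1.15 to 3.60 over all libraries.

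Of the S phase regulators, the cyclin E genes were lower with JQ1 at 24 h and E2f1 was not. Ccne1 was at 7.93 and 7.84 at 0 h, 9.57, 15.1 and 12.4 with PDGF at 2 h, and 9.05, 7.01 and 8.41 at 24 h. With JQ1 plus PDGF it was at 9.13, 9.80 and 10.9 at 2 h and at 4.81, 5.20 and 2.80 at 24 h, apart from PDGF alone at 24 h (-0.82 ± 0.21, adjusted p 0.00355). Ccne2 was at 7.02 and 6.24 at 0 h, 3.74, 4.61 and 3.51 with PDGF at 2 h, and 4.91, 3.64 and 3.00 at 24 h. In cells given JQ1 before PDGF it was at 2.30, 5.03 and 2.40 and then at 1.60, 1.68 and 1.57 (-0.87 ± 0.24 at 24 h, adjusted p 0.00676). When centred these 24 h differences were -0.33 and -0.42, and neither passed. Ccne2 lies partly over Ints8 in RefSeq.

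E2f1, the activating factor of many genes in this set, was at 8.43 and 8.68 at 0 h, 5.26, 11.3 and 5.98 with PDGF at 2 h, and 4.37, 4.44 and 4.30 at 24 h. Its fall at 24 h (-0.83 ± 0.26, adjusted p 0.0197) was lost without 0 h library 0 or 1 (0.0868 to 0.0893). The JQ1 libraries held it at 5.52, 7.99 and 8.10 at 2 h and at 7.65, 7.23 and 5.39 at 24 h. Every 24 h JQ1 library lay above every PDGF 24 h library, with a difference of 0.52 ± 0.24 that did not pass (adjusted p 0.0779) and of 1.01 ± 0.19 that did when centred (0.000618).

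Prim1, the catalytic subunit of primase, was the most abundant of the primase and polymerase members and fell in all 5 comparisons between groups. Its level was 47.5 and 46.3 at 0 h, 38.2, 32.4 and 30.7 with PDGF at 2 h, and 19.95, 24.6 and 24.5 at 24 h. After JQ1 and PDGF it was at 21.5, 21.6 and 19.4 at 2 h and at 12.5, 10.8 and 9.81 at 24 h. None of these pairs of groups overlapped. The differences were -1.004 ± 0.15 for PDGF 24 h against 0 h (adjusted p 0.000101), -0.67 ± 0.13 with JQ1 at 2 h (0.0011) and -0.998 ± 0.13 at 24 h (1.61e-05). When centred the JQ1 difference at 2 h was -0.36 and missed the threshold. The fall at 2 h of PDGF (-0.47 ± 0.15, adjusted p 0.0278) was lost without 0 h library 0 or 1 or PDGF 2 h library 1 or 2 (0.0540 to 0.150).

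Pole, the catalytic subunit of the leading-strand polymerase, was at 2.96, 2.42 and 1.97 with PDGF at 24 h and at 0.896, 0.652 and 0.613 with JQ1 plus PDGF (-0.997 ± 0.23, adjusted p 0.00203, centred -0.58 and called). At 0 h it was at 3.28 and 5.83, with PDGF at 2 h at 2.40, 3.21 and 2.45, and with JQ1 plus PDGF at 2 h at 1.60, 2.44 and 2.17, so the 2 h groups overlapped. Pola1, the catalytic subunit of polymerase alpha, was at 2.87, 3.70 and 3.34 with PDGF at 2 h and at 0.831, 1.60 and 1.24 with JQ1 as well (-0.96 ± 0.21, adjusted p 0.002, centred -0.73 and called). Its level was 3.98 and 4.34 at 0 h, at 2.27, 3.36 and 2.84 with PDGF at 24 h and at 1.67, 1.26 and 1.47 with JQ1 plus PDGF at 24 h. That 24 h difference (-0.62 ± 0.21, adjusted p 0.0207) was lost without PDGF 24 h library 1 or JQ1 plus PDGF 24 h library 1 or 2 (0.0572 to 0.0911) and was -0.15 when centred. Of the other polymerase members, Prim2 passed nowhere. Pold1 fell only in the comparisons with 0 h and Pola2 only with JQ1 at 2 h, and these are among the calls lost without single libraries above (adjusted p 0.0751 to 0.230 for Pold1 and 0.0506 to 0.209 for Pola2).

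Pcna, the sliding clamp that holds polymerases on DNA, was the member that passed as higher with JQ1 at both times. At 24 h E2f1, Rfc2, Rfc5 and Mcm7 also lay above 0 without passing, and when centred these 4 passed as rises there too. Its level was 101 and 116 at 0 h, 135, 117 and 123 with PDGF at 2 h, and 70.5, 71.6 and 78.4 at 24 h, lower than at 0 h in every library (-0.56 ± 0.12, adjusted p 0.00143). With JQ1 plus PDGF it was at 166, 181 and 170.5 at 2 h and at 115, 100.4 and 99.6 at 24 h. Both JQ1 groups lay above their PDGF groups, by 0.46 ± 0.10 at 2 h (adjusted p 0.00222) and 0.51 ± 0.10 at 24 h (0.000724), which are mean levels 1.38 and 1.43 times those with PDGF alone. When centred the differences were 0.80 and 1.02. RefSeq lists pseudogene copies of Pcna, as it does for Mcm2, Mcm4, Mcm7, Gins4, Rfc4, Rfc5, Rpa1, Rrm1 and Tk1, and the sources used here do not say how reads shared with such copies were assigned.

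**Figure D4:**
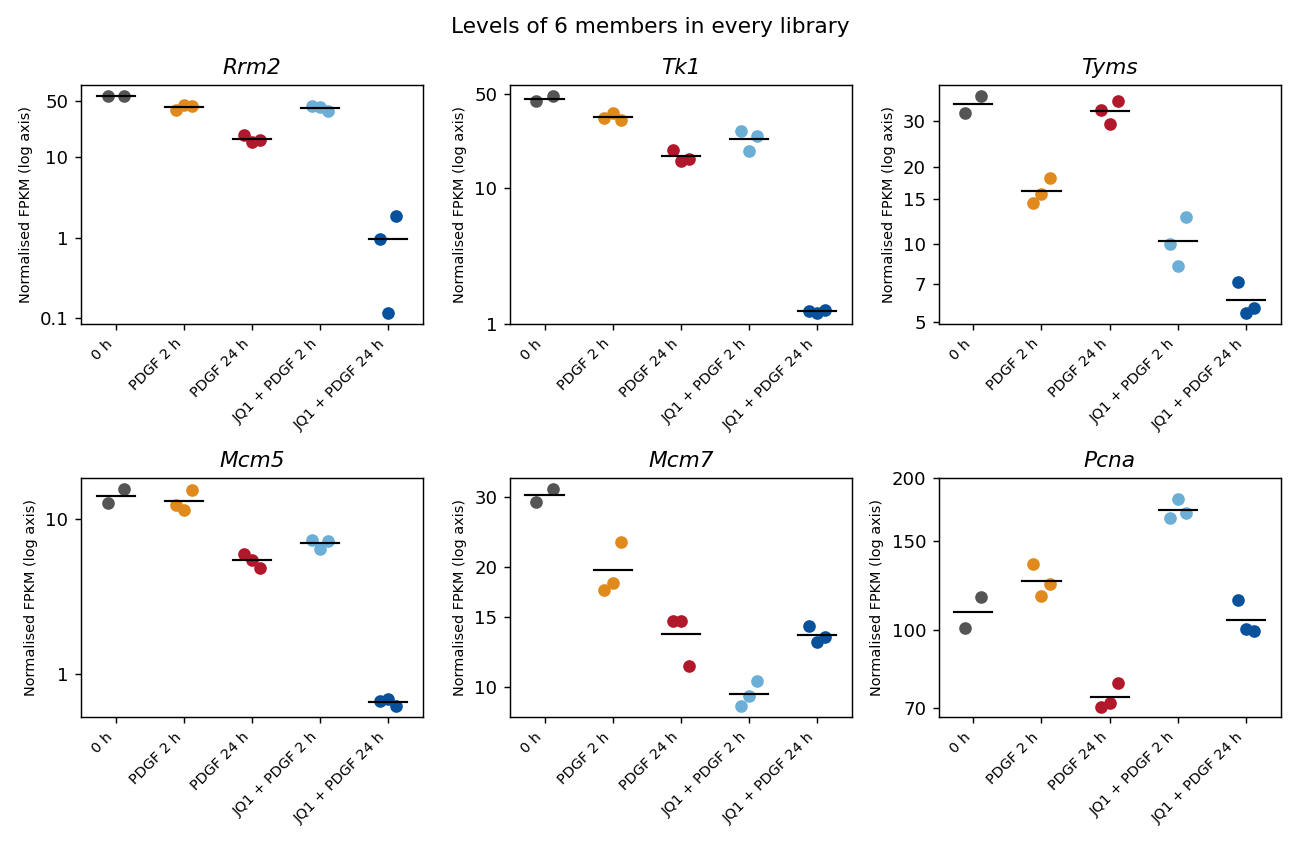
Points are the normalised FPKM of 6 members in each library on a log axis of its own range, with a line at the group mean. Rrm2, Tk1 and Mcm5 have their lowest libraries with JQ1 plus PDGF at 24 h, where Mcm7 lies between 13.0 and 14.2 as with PDGF alone and Pcna lies between 99.6 and 115, above PDGF alone.

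Of the clamp loader subunits, Rfc3 moved with the helicase genes while Rfc2 and Rfc5 did not. Rfc3 was at 13.7 and 22.7 at 0 h, 21.4, 21.0 and 27.0 with PDGF at 2 h, and 5.43, 14.9 and 10.4 at 24 h. In cells given JQ1 before PDGF it was at 9.64, 9.23 and 11.4 at 2 h (-1.12 ± 0.27, adjusted p 0.0042) and at 3.11, 4.61 and 3.58 at 24 h (-1.16 ± 0.27, 0.00221, not called when centred). The 0 h and PDGF 24 h ranges overlapped, and that call (-0.83 ± 0.30, adjusted p 0.0395) was lost without 0 h library 1 or PDGF 24 h library 0 or 2 (0.0583 to 0.335). Rfc4 was at 12.2 and 10.1 at 0 h, 6.57, 13.3 and 7.83 with PDGF at 2 h, and 9.24, 9.11 and 6.68 at 24 h. Its level was 5.76, 8.63 and 3.87 with JQ1 plus PDGF at 2 h and at 6.59, 2.88 and 3.80 at 24 h (-0.83 ± 0.30, adjusted p 0.0281), which was lost without PDGF 24 h library 0 or 1 or JQ1 plus PDGF 24 h library 1 or 2 (0.0793 to 0.135) and when centred. Rfc2 and Rfc5 differed by 0.35 ± 0.25 and 0.16 ± 0.23 with JQ1 at 24 h, which did not pass, and by 0.87 and 0.67 when centred, which did.

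The single-strand binding subunits Rpa1 and Rpa2 fell together at 2 h of PDGF and parted at 24 h. Rpa1 was at 24.2 and 27.5 at 0 h, 15.4, 13.4 and 17.5 with PDGF at 2 h, and 29.1, 29.8 and 30.2 at 24 h. The JQ1 libraries held it at 13.0, 16.4 and 15.1 at 2 h, overlapping PDGF alone, and at 21.6, 18.7 and 19.98 at 24 h, below it. It differed from 0 h by -0.72 ± 0.15 at 2 h (adjusted p 0.00219), rose by 0.91 ± 0.13 from 2 to 24 h of PDGF (5.2e-05, centred 0.53), and fell by 0.54 with JQ1 at 24 h (SE 0.13, 0.00305), which was -0.04 when centred. Rpa2 was at 25.6 and 25.7 at 0 h, 14.8, 10.8 and 12.3 with PDGF at 2 h, and 12.3, 15.5 and 14.5 at 24 h. Its level was 4.78, 8.50 and 7.62 with JQ1 plus PDGF at 2 h and at 9.20, 8.31 and 7.17 at 24 h. Its differences from 0 h were -0.98 ± 0.21 (adjusted p 0.00294) and -0.82 ± 0.21 (0.00621). Those with JQ1 were -0.79 ± 0.19 (0.00385) and -0.71 ± 0.19 (0.0055), and neither of the latter passed when centred.

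Fen1, the flap nuclease of Okazaki fragments, was at 12.4 and 10.3 at 0 h, 7.63, 10.3 and 7.91 with PDGF at 2 h, and 9.76, 5.48 and 5.56 at 24 h. Its level was 4.07, 6.78 and 5.48 with JQ1 plus PDGF at 2 h and at 4.45, 3.89 and 4.48 at 24 h. Both of its calls, PDGF 24 h against 0 h (-0.67 ± 0.25, adjusted p 0.0415) and JQ1 at 2 h (-0.59 ± 0.22, 0.0464), were lost without any of 4 single libraries each. The adjusted p was then 0.0752 to 0.240 without 0 h library 0 or 1 or PDGF 24 h library 1 or 2, and 0.0674 to 0.188 without PDGF 2 h library 1 or 2 or JQ1 plus PDGF 2 h library 0 or 2. Lig1, the ligase that seals the fragments, ranged from 0.926 to 5.51 and passed nowhere. Chaf1b, a subunit of the chaperone that places histones behind the fork, was at 4.56 and 6.46 at 0 h and at 3.95, 2.37 and 2.45 with PDGF at 24 h (-0.74 ± 0.31, adjusted p 0.0646), and it passed on this scale in no comparison. Chaf1b was at 3.74, 6.62 and 2.53 with PDGF at 2 h, at 4.30, 6.41 and 4.89 with JQ1 plus PDGF at 2 h and at 2.96, 2.84 and 2.10 at 24 h, and the JQ1 groups overlapped those of PDGF alone. Fen1, Lig1 and Gins2 lie partly over neighbours on the other strand (Tmem258, Zswim9 and Gse1). The kit keeps strand, but the sources used here do not say whether the counting used it.

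The nucleotide synthesis genes held the largest differences of the whole set. Rrm2, the small subunit of ribonucleotide reductase, whose supply peaks in S phase, was at 57.1 and 58.2 at 0 h, 38.4, 44.2 and 43.7 with PDGF at 2 h, and 19.0, 15.4 and 16.3 at 24 h. After JQ1 and PDGF it was at 44.0, 42.8 and 37.4 at 2 h, overlapping PDGF alone, and at 0.962, 0.116 and 1.85 at 24 h, far below it. The difference with JQ1 was -0.02 ± 0.24 at 2 h (adjusted p 0.95) and -3.28 ± 0.24 at 24 h (2.29e-08), the latter a mean level 0.0578 times that with PDGF alone. The lowest library was at 0.0555 before normalisation, where a value is uncertain. With PDGF at 24 h Rrm2 had fallen by 1.72 (SE 0.27, adjusted p 0.000141). RefSeq places Rrm2 partly over Cys1.

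Tk1, the salvage thymidine kinase of S phase, was at 43.8 and 48.2 at 0 h, 33.2, 35.8 and 32.0 with PDGF at 2 h, and 19.2, 15.8 and 16.6 at 24 h (-1.37 ± 0.16 against 0 h, adjusted p 1.13e-05). With JQ1 plus PDGF it was at 26.6, 18.8 and 24.4 at 2 h and at 1.24, 1.21 and 1.27 at 24 h. All 3 of the latter lay below every other library. The JQ1 difference was -0.53 ± 0.15 at 2 h (adjusted p 0.00928), lost without JQ1 plus PDGF 2 h library 1 (0.0533) and when centred (-0.21), and -3.02 ± 0.15 at 24 h (2.17e-10). The mean level at 24 h was 0.0721 times that with PDGF alone.

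Tyms, which makes thymidylate, took another course under PDGF. Its level was 32.3 and 37.7 at 0 h, 14.5, 15.7 and 18.0 with PDGF at 2 h, and 33.3, 29.4 and 36.0 at 24 h, so the 0 h and 24 h libraries overlapped and the 2 h libraries lay below both. The fall at 2 h was -1.08 ± 0.19 (adjusted p 0.000482) and the rise from 2 to 24 h was 0.99 ± 0.17 (0.000169, centred 0.61). In cells given JQ1 before PDGF it was at 10.0, 8.20 and 12.7 at 2 h (-0.61 ± 0.17, adjusted p 0.0093, not called when centred) and at 7.15, 5.40 and 5.63 at 24 h. The difference at 24 h was -2.27 ± 0.17 (2.74e-08), a mean level 0.184 times that with PDGF alone. Rrm1, the large subunit of ribonucleotide reductase, ranged from 16.0 to 18.5 with PDGF at 24 h and from 7.16 to 9.56 with JQ1 plus PDGF, a difference of -1.01 ± 0.16 (adjusted p 5.59e-05) and the test between the times did not pass for it. At 0 h Rrm1 was at 40.1 and 46.8.

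Other genes of the pathway give the setting. Of 81 such genes listed, 70 had a row and 69 were tested, and Mcm9, Dbf4b, Topbp1, Ticrr, Atad5, Dna2, Chaf1a, E2f2, E2f5, E2f8 and Fbxw7 were not analysed here. With PDGF at 2 h 7 rose and 9 fell (7 and 20 when centred), at 24 h against 0 h 8 rose and 12 fell (3 and 36), and from 2 to 24 h 13 rose and 10 fell (6 and 32). With JQ1 8 rose and 31 fell at 2 h (13 and 17), and 6 rose and 36 fell at 24 h (16 and 16). In the test between the times 6 were higher and 11 lower (13 and 10). The shares of all genes tested that rose and fell were 17.7% and 12.7% with PDGF at 2 h (20.4% and 19.4% when centred). They were 37.7% and 4.85% at 24 h (14.8% and 13.4%), and 44.5% and 11.8% from 2 to 24 h (26.6% and 25.8%). With JQ1 they were 7.24% and 34% at 2 h (20.1% and 21.5%), and 4.61% and 48.5% at 24 h (23.1% and 25.8%). Between the times they were 4.82% and 17.5% (13.5% and 16.4%).

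At 2 h of PDGF the activator gene E2f3 rose by 1.32 ± 0.31 (adjusted p 0.00522) and the CDK inhibitor gene Cdkn1a by 1.23 ± 0.14 (9.71e-06), while the CDK inhibitor gene Cdkn1b (-1.56 ± 0.16, 2.50e-06) and the clamp loader gene Rfc1 (-1.08 ± 0.18, 0.000371) fell. At 24 h against 0 h the G1 cyclin genes Ccnd1 (1.93 ± 0.13, 4.19e-08) and Ccnd2 (1.93 ± 0.31, 0.000193) rose, and the histone chaperone gene Asf1b (-1.20 ± 0.32, 0.00726) and the origin recognition gene Orc1 (-1.18 ± 0.32, 0.00727) fell. In the same comparison none of the members Ccne1, Ccne2 and E2f1 rose. Of the 9 E2F and pocket protein genes of the wider list, 1 rose (0 when centred). E2f3 was at 1.93 and 5.54 at 0 h and at 7.76, 6.44 and 7.06 with PDGF at 24 h. From 2 to 24 h the same cyclins rose by 1.97 ± 0.12 and 1.77 ± 0.28, and Ctps1, of CTP synthesis (-1.02 ± 0.11), and Dscc1, of an alternative clamp loader (-0.97 ± 0.23), fell most.

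With JQ1, the replisome gene Donson rose at 2 h (1.35 ± 0.20, adjusted p 8.10e-05) and at 24 h (1.06 ± 0.20, 0.000312). The histone mRNA binding gene Slbp rose at 2 h (0.86 ± 0.12, 7.68e-05) and the purine synthesis gene Gart at 24 h (0.67 ± 0.14, 0.000871). The largest falls were Cdk6, a cyclin D kinase (-2.06 ± 0.28, 4.79e-05), and Dctd, the dCMP deaminase that feeds thymidylate synthesis (-1.83 ± 0.20, 6.92e-06), at 2 h. At 24 h they were Dctd (-2.80 ± 0.20, 2.06e-08) and Asf1b (-1.85 ± 0.29, 5.93e-05). In the test between the times, the JQ1 difference of Cdk6 (1.24 ± 0.40, 0.0367) and the polymerase delta gene Pold2 (1.04 ± 0.31, 0.0235) was higher at 24 h than at 2 h. That of the chromatin ATPase gene Atad2 (-1.77 ± 0.26, 0.000181) and of Cdkn1b (-1.72 ± 0.20, 2.25e-05) was lower. Cdk6 still stood lower with JQ1 plus PDGF at 24 h (5.90, 6.29 and 5.90) than with PDGF alone (12.5, 9.21 and 12.9).

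By role, 10 of the 13 clamp loader, fork and checkpoint genes of that list fell with JQ1 at 2 h and 11 at 24 h, where 34% and 48.5% of all genes did. When centred 8 and 5 fell, where 21.5% and 25.8% of all genes did. Of the 11 G1 cyclin, kinase and inhibitor genes, 5 rose and 0 fell with PDGF at 24 h against 0 h (3 rose and 4 fell when centred), and 0 rose and 8 fell with JQ1 at 24 h (1 and 4). Of all genes tested, 37.7% rose and 4.85% fell with PDGF at 24 h (14.8% and 13.4% when centred). With JQ1, 7.24% rose at 2 h and 4.61% at 24 h (20.1% and 23.1% when centred). Of the 9 origin recognition and licensing genes, 1 rose and 2 fell with JQ1 at 24 h (5 and 0 when centred). Origin firing (5 tested) had 2 falls with PDGF at 24 h and 1 rise and 1 fall with JQ1 at either time (1 and 0 when centred). Among polymerase subunits (6 tested), 1 rose and 2 fell with JQ1 at 24 h, and the balance turned to 3 and 0 when centred.

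Genes of the later cycle moved beside the members. Of 14 G2/M genes 8 fell with PDGF at 2 h and 13 at 24 h against 0 h, 11 with JQ1 at 2 h and 14 with JQ1 at 24 h, where 12.7%, 4.85%, 34% and 48.5% of all genes tested did. When centred these counts were 9, 14, 8 and 13, against 19.4%, 13.4%, 21.5% and 25.8%, and none rose on either scale. Their summed unnormalised FPKM was 362 to 380 at 0 h, 223 to 248 and 85.7 to 92.6 with PDGF at 2 and 24 h, and 163 to 166 and then 18.5 to 21.6 with JQ1 as well. No group overlapped another in that sum. The part of this in the members' differences was not tested.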

How the data were processed

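Polyadenylated RNA of 14 libraries in 5 groups was read as 40 base single ends from a stranded kit, per the labels' protocols. The authors deposited unnormalised and normalised FPKM for 17404 features (17312 genes and 92 ERCC spike-ins). HISAT and Cufflinks 2.0.0 on rn6 were used, per the submitters' processing notes. Annotation, strand setting and normalisation method are not given in the sources used here. Columns were matched to groups by name. Their digits match no title letter, so libraries are named by group and digit. A count model cannot take FPKM, and depth is unknown.

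Genes at 1 normalised FPKM or more in at least 2 libraries were tested (10133). limma 3.58.1 in R 4.3.3 was run on log2(value + 1), with 1 model over the 5 groups, 9 residual degrees of freedom and a mean trend. The median-centred scale divided unnormalised FPKM by size factors of 1.015 to 1.024 (9980 genes tested). The alternatives were that scale, a pseudocount of 0.1, no filter, a fit of the compared groups alone, and each library left out. PDGF 2 h library 1 and PDGF 24 h library 0, whose low values the authors' normalisation moved most, were also left out together, and on the centred scale this was added after seeing the data. The code was tested on simulated data. The members and lists were chosen with earlier results of these data known.

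By the naming rule all members are named. Values in every library are given for all helicase subunits and the 1 to 3 members of each other role with the largest differences. Of the other pathway genes, the 2 highest and 2 lowest calls per comparison are named. Promoters are RefSeq sequences on GRCr8, not the files' build.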

Additional observations from a re-analysis of the deposited data

Results flagged for a closer look

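For 5 members the difference between JQ1 plus PDGF and PDGF alone was not the same at 24 h as at 2 h, by the limma test of the difference between the times. Of all genes tested 17.5% were lower and 4.82% higher in that test, and 4 and 1 of 37 members are no more than that background. The log2 value at 24 h minus that at 2 h was -3.25 for Rrm2, -2.49 for Tk1, -1.66 for Tyms and -1.15 for Mcm5, each lower at 24 h. For Mcm7 it was 0.96, since Mcm7 was lower with JQ1 at 2 h (-0.95 ± 0.15) and level with PDGF alone at 24 h (0.01 ± 0.15). Groups of 2 or 3 libraries are too small to look for a single outlying library by rule.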

How the results depend on the processing

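No paired analysis was possible because the columns carry digits that match no letter of the sample titles, so no column could be tied to a replicate of another group. Members that rose and fell changed in number with the scale. Centred, PDGF at 2 h gave 1 and 14 (0 and 7 on the spike-in scale), rises from 2 to 24 h numbered 2 (4), falls with JQ1 at 2 h 11 (17), and JQ1 at 24 h gave 5 and 12 (1 and 22). Centred without both PDGF 2 h library 1 and PDGF 24 h library 0, falls with PDGF at 2 h numbered 11, rises from 2 to 24 h 2, rises with JQ1 at 2 h 3, rises and falls with JQ1 at 24 h 5 and 13, and rises between the times 2. There E2f1 with JQ1 at 2 h turned to 0.51 and Rfc2 from 2 to 24 h of PDGF to -0.11. Without both on the spike-in scale, rises from 2 to 24 h numbered 2 and rises with JQ1 at 24 h 2. A fit of the compared groups alone gave 3 falls with PDGF at 2 h and 2 rises with JQ1 at 24 h. With no filter, falls with PDGF at 24 h numbered 13 and rises from 2 to 24 h 2. The cause of these moves was not tested. With 1 library left out, rises and falls ranged over 0 to 1 and 3 to 7 for PDGF at 2 h, 0 to 0 and 10 to 20 for 24 h against 0 h, 2 to 4 and 11 to 15 from 2 to 24 h, 1 to 1 and 15 to 19 for JQ1 at 2 h, 1 to 1 and 18 to 24 for JQ1 at 24 h, and 1 to 1 and 4 to 5 between the times. Where 0 h was left with 1 library, that library was assumed to vary like the other groups. The pseudocount of 0.1 moved no count of members by more than 1.5 times. Depth is unknown, so the counting error of low values such as those of Mcm10, Gins3 and Cdc6 could not be estimated.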
